A study of Mus musculus with 2 samples.

Results

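The genes described here are 10 markers of the primitive endoderm and of the basement membrane that it lays down, taken from the 26127 genes that were quantitated in mouse embryonic stem (ES) cells, either WT or with a G34R mutation of the histone variant H3.3. They are the transcription factors Gata4, Gata6 and Sox17, the endocytic adaptor Dab2, the matrix glycoprotein Sparc, the laminin chains Lama1, Lamb1 and Lamc1, and the collagen IV chains Col4a1 and Col4a2. They were selected by name, with the RPKM of these same 2 libraries already known, so their direction is a description and not a test. Both cell lines are of the strain 129S1/SvImJ and were grown in serum with leukaemia inhibitory factor. WT cells are unmodified (H3f3a+/+, H3f3b+/+). G34R cells (H3f3a+/G34R, H3f3b+/+) carry 1 copy of H3f3a in which Cre-mediated excision placed a G34R minigene under the endogenous promoter, and which clone was sequenced is not given in the sources used here. There was 1 library per cell line, so no value has a replicate, and effects of genotype, clone and culture cannot be told apart.

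The primitive endoderm is the epithelium that forms beside the epiblast in the late blastocyst. GATA factors specify it, Sox17 acts with them, and Dab2 is needed to organise its apical endocytosis and its position at the surface. Its parietal derivative secretes Reichert's membrane, a thick basement membrane. Basement membranes are built from a laminin network, in which 1 α, 1 β and 1 γ chain form a trimer, and a collagen IV network, in which 2 α1 chains and 1 α2 chain form the usual trimer. Nidogens and perlecan link both networks. ES cells themselves make laminin, and a minority of cells in serum cultures can switch on endoderm genes.

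Members whose starts could be shown were used to look at the letters from which they are transcribed. Col4a1 and Col4a2 are a divergent gene pair on chromosome 8, with Col4a1 on the minus strand (11198423 to 11312826 in mm9) and Col4a2 on the plus strand (11312805 to 11449287). Their first exons overlapped by 22 bases, so both starts lie within 1 short stretch. It is shown for chr8:11312801-11312830, plus strand of mm9, with the shared bases in capitals.

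Col4a1 and Col4a2 starts: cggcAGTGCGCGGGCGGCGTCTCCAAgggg

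For promoters, RefSeq windows of 250 bases before the transcript start were used, and 6 windows of 5 members (Col4a1, Col4a2, Dab2, Lamb1 and Sparc) were matched. They were searched on both strands for a GATA hexamer (AGATAA, also with T as its first or G as its last letter) and for the SOX core ACAAT, with no overlap between matches in these windows. Of all 32851 windows in the RefSeq table, 26.5% held a GATA hexamer and 27.7% held the SOX core. Among the windows of the members, 1 held a GATA hexamer (TGATAA, from 179 to 174 bases before the upstream start of Dab2) and none held the SOX core. The Dab2 window and that of Sparc, the member with the highest RPKM in G34R cells, are printed from the matching bases of mm9, chr15:6249539-6249787 on the plus strand and chr11:55233583-55233832 on the minus strand. Capitals mark the GATA hexamer.

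Dab2 promoter: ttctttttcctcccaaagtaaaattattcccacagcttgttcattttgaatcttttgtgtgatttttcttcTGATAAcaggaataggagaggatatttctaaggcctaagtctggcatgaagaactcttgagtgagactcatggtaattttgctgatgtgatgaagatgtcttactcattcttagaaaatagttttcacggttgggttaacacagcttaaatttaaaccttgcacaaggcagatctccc

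Sparc promoter: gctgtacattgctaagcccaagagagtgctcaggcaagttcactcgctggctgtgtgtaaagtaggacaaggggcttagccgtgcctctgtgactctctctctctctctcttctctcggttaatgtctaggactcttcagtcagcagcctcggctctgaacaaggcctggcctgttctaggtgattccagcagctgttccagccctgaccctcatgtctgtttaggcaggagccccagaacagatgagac

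From its steps in RPKM, the WT library was estimated to hold 88.1 M reads and the G34R library 72.3 M reads, so that 1 read on a 1 kb transcript is worth 0.0114 and 0.0138 RPKM. All 11 ES cell markers listed passed the filter, with Pou5f1 at 194.34 and 189.46 RPKM, Tdgf1 at 261.25 and 255.61 RPKM and Dppa5a at 707.95 and 647.81 RPKM. Other ES cell genes differed, with Utf1 at 61.89 and 108.56 RPKM and Klf4 at 25.14 and 43.71 RPKM against Nanog at 127.07 and 52.24 RPKM and Zfp42 at 180.30 and 16.40 RPKM, in WT and G34R cells respectively. The targeted gene H3f3a was at 8.17 and 4.89 RPKM and H3f3b at 68.84 and 58.76 RPKM. The H3f3a values do not separate the WT and mutant alleles, and what part of the minigene RNA they count is not known.

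All 10 genes had a higher RPKM in G34R than in WT cells. Among the 13366 genes with at least 0.25 RPKM in 1 library, 44.5% were higher in G34R cells. The log2 (G34R/WT RPKM) of the members was between 0.26 and 1.86, with a median of 0.71, beside a median of -0.07 over all genes past the filter. A difference of more than 2-fold was reached by 3 members, the transcription factors, against 5.79% of all genes, and no member was lower by more than 2-fold, against 9.64%. Since the members were picked with these values known, nothing is read from their counts. All 10 passed the filter, but Sox17 passed it only through its G34R value.

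**Figure D1:**
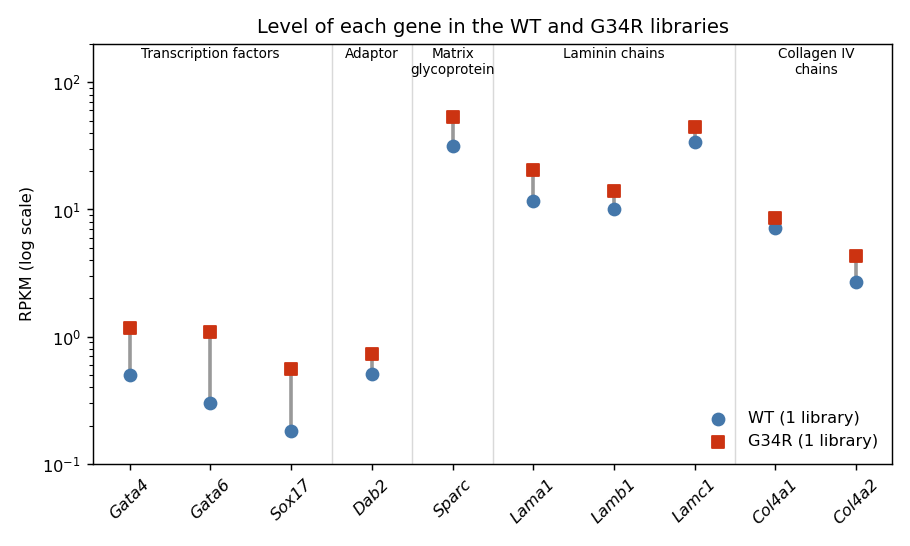
RPKM (log scale) of the 10 genes in the single WT library (circles) and the single G34R library (squares), ordered by role. Each square lies above its circle, and the gap is widest for Gata4, Gata6 and Sox17, which are also among the lowest in RPKM.

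The 3 transcription factors had the largest ratios and very low levels. Gata6, which initiates the endoderm programme and can convert ES cells to endoderm when expressed from a transgene, was at 0.30 RPKM in WT and 1.09 RPKM in G34R cells. This is a 3.63-fold difference, with a 95% counting interval of 2.84 to 4.74, from about 84 and 252 reads. The gene spans 11052508 to 11085633 on the plus strand of chromosome 18. Gata4, its paralog with an overlapping role in the same lineage, was at 0.50 RPKM in WT and 1.18 RPKM in G34R cells, which is 2.36-fold higher (1.96 to 2.86), from about 172 and 334 reads. Sox17, a SOX F factor that maintains the endoderm, was at 0.18 RPKM in WT and 0.56 RPKM in G34R cells, which is 3.11-fold higher (2.23 to 4.42), from about 50 and 128 reads. Each interval lay above 1, so counting error is smaller than these differences, but the spread between cultures is unknown. Ratios past 2-fold were more common among weakly expressed genes. Of the genes whose higher value was 0.25 to 1 RPKM, as for Sox17, 12.7% were higher in G34R cells by more than 2-fold, and of those between 1 and 10 RPKM, as for Gata4 and Gata6, 4.43%. In Sox17's range of level 5.84% of genes had a ratio at least as high, in that of Gata4 2.95% and in that of Gata6 1.12%. Gata4 and Gata6 entered the range of 1 to 10 RPKM only through their G34R values, near its lower edge. Their WT values lay between 0.25 and 1 RPKM. In that lower range, genes of like ratio had larger shares, 9.48% for Amn (log2 ratio 1.24) and 4.59% for Itga7 (1.83). The log2 ratios of Gata4 and Gata6 were 1.24 and 1.86. In bulk RNA, more cells that express these factors and more RNA per cell cannot be told apart.

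Dab2, the cytoplasmic adaptor for endocytic receptors of the megalin family, was at 0.51 RPKM in WT and 0.73 RPKM in G34R cells. The difference was 1.43-fold (1.23 to 1.66), from about 330 and 388 reads. In WT cells Dab2 and Gata4 were level with each other, at 0.51 and 0.50 RPKM, whereas in G34R cells Dab2 was below both GATA factors. The gene spans 6249788 to 6390712 on the plus strand of chromosome 15, and a second gene model of the same name lies within it in the annotation, while 1 probe bears the name, so how reads of both models were assigned is uncertain.

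Sparc, a secreted glycoprotein that binds collagen and is abundant in parietal endoderm, was at 31.72 RPKM in WT and 53.36 RPKM in G34R cells. The ratio was 1.68 (1.64 to 1.73), from about 9409 and 12990 reads. In absolute terms this was the largest difference among the members, at 21.64 RPKM. Of the genes that reached 10 RPKM, 3.37% were higher in G34R cells by more than 2-fold, a limit that Sparc did not reach, and 6.29% had a ratio at least as high as that of Sparc. The gene lies on chromosome 11 from 55208002 to 55233582, on the minus strand.

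**Figure D2:**
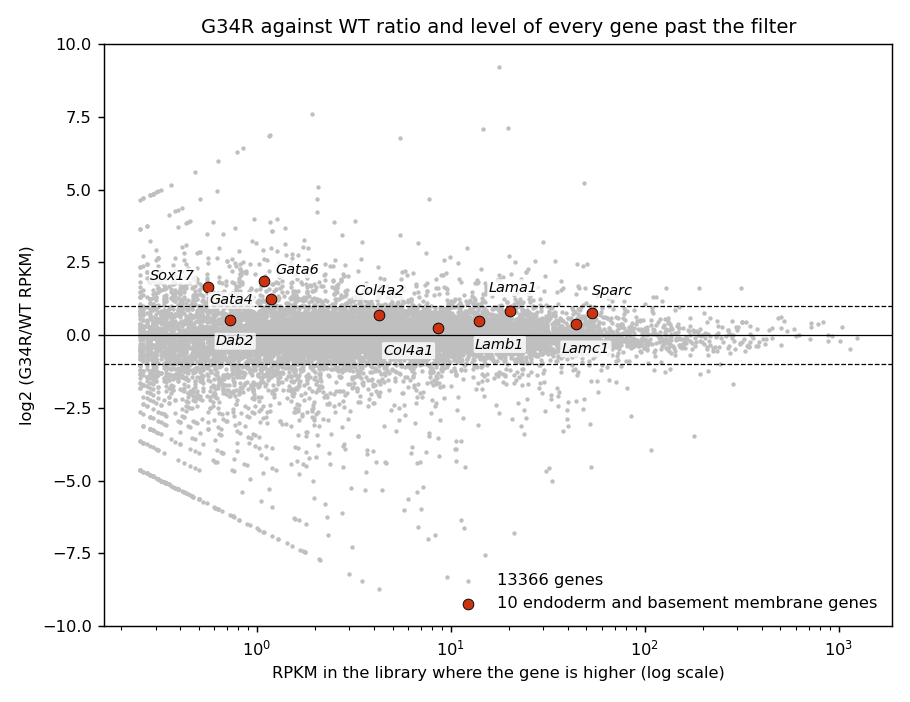
The log2 (G34R/WT RPKM) of the 13366 genes past the filter (grey) against the RPKM of the library where each was higher (log scale), with the 10 genes in red and dashed lines at 2-fold. The scatter narrows as the level rises, and the members lie in its upper part, from 0.26 for Col4a1 to 1.86 for Gata6.

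The 3 chains of laminin-111, the first laminin of the embryo, were all higher in G34R cells, by unequal amounts. Lama1, its α1 chain (chromosome 17, 68046605 to 68171985), was at 11.56 RPKM in WT and 20.26 RPKM in G34R cells, a ratio of 1.75 (1.71 to 1.80). Lamb1, its β1 chain (chromosome 12, 31950099 to 32014509), was at 10.06 and 13.91 RPKM, a ratio of 1.38 (1.34 to 1.42). Lamc1, its γ1 chain (chromosome 1, 155066052 to 155179916), was at 34.07 and 44.27 RPKM, a ratio of 1.30 (1.28 to 1.32). The order γ1, α1, β1 was the same in both libraries, and the counting intervals of the 3 ratios did not overlap. The RPKM of γ1 was 2.95 times that of α1 in WT and 2.19 times in G34R cells, while γ1 over β1 was 3.39 and 3.18. The ratio of α1 to β1 was 1.15 in WT and 1.46 in G34R cells.

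Col4a1 was at 7.14 RPKM in WT and 8.53 RPKM in G34R cells, a ratio of 1.19 (1.14 to 1.25), from about 4289 and 4205 reads. Col4a2 was at 2.67 and 4.27 RPKM, a ratio of 1.6 (1.5 to 1.71), from about 1557 and 2043 reads. Although the starts of both genes lie within the same 22 bases, the counting intervals of their ratios did not overlap. The level of Col4a1 was 2.67 times that of Col4a2 in WT and 2.00 times in G34R cells. Genes on chromosome 8 with at least 1 RPKM had a median log2 ratio of 0.36, above the 0.26 of Col4a1 and below the 0.68 of Col4a2. Relative to this median Col4a1 was lower in G34R cells, with a log2 ratio of -0.10. The 8 expressed neighbours within 500 kb of the pair had a median of -0.02, and the part of the chromosome-wide difference in the values of the pair was not tested.

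The other chains of both families differed widely in level. Of the 7 further laminin chains reported here, 4 passed the filter. Beside 44.5% of all genes past the filter, 3 of these 4 chains were higher in G34R cells, with a median log2 ratio of 0.68 (0.71 for the members). Lama5, the α5 chain of laminin-511, was the most abundant of them, at 18.74 RPKM in WT and 23.79 RPKM in G34R cells. It exceeded Lama1 in both libraries, and Lama1 made up 37.7% of the α chain RPKM in WT and 45% in G34R cells. Lamb2 was at 2.55 and 5.13 RPKM (2.01-fold) and Lama3 at 0.32 and 0.91 RPKM (2.84-fold). Lamb3, which pairs with Lama3 in the laminin of stratified epithelia, was at 0.31 and 0.21 RPKM. The chains Lama2, Lama4 and Lamc3 stayed at or under 0.07 RPKM. The share of Lamb1 among β chains was 77.9% in WT and 72.3% in G34R cells. Of the further collagen IV chains, Col4a3, Col4a4 and Col4a6 were listed at 0 in both libraries and Col4a5 at 0.03 RPKM, so Col4a1 and Col4a2 accounted for nearly all collagen IV RPKM.

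**Figure D3:**
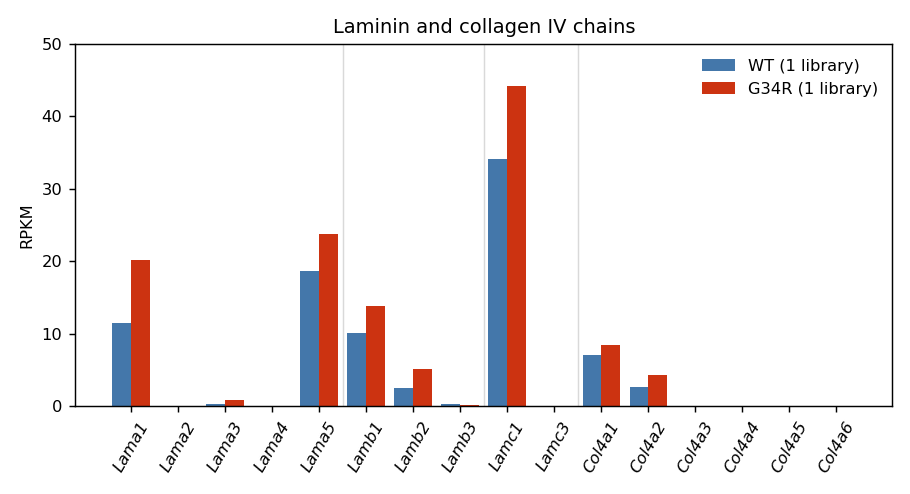
RPKM of 10 laminin chains and the 6 collagen IV chains in the WT library (blue) and the G34R library (red), without replicates and so without error bars. Lamc1, Lama5, Lama1 and Lamb1 are the tallest laminin bars in both libraries, and of collagen IV only Col4a1 and Col4a2 stand above the axis.

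Other basement membrane components did not share 1 direction. Of 17 listed, 12 passed the filter, and 6 of these were higher in G34R cells and 6 lower, with a median log2 ratio of -0.19. Fn1, encoding fibronectin, was at 40.85 RPKM in WT and 62.59 RPKM in G34R cells (1.53-fold). Frem2 and Fbln2 were higher by more than 2-fold, with log2 ratios of 1.29 and 1.14. In contrast Nid2, which encodes the linker nidogen-2, was at 52.84 RPKM in WT and 17.70 RPKM in G34R cells (log2 ratio -1.58). Nid2 RPKM was 1.55 times that of Lamc1, the laminin chain that nidogens bind, in WT and 0.40 times in G34R cells. Smoc1, a relative of Sparc, was at 7.14 and 1.83 RPKM (log2 ratio -1.96) and Col18a1 at 33.47 and 22.07 RPKM (log2 ratio -0.60). Chosen after their values were seen, the second linker Nid1 was at 15.96 and 10.03 RPKM, and Hspg2, encoding perlecan, at 14.16 and 28.70 RPKM (2.03-fold).

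Receptors that bind these networks differed in both directions. Of 17 listed, 16 passed the filter, and 12 were higher in G34R cells, 5 of them by more than 2-fold, beside 44.5% and 5.79% of all genes. Their median log2 ratio was 0.59, and as the list was chosen with these values known, nothing is read from its counts. Bcam, the Lutheran glycoprotein that binds laminin α5, was at 23.25 RPKM in WT and 49.88 RPKM in G34R cells (2.15-fold). Itgb1, the β1 integrin subunit that is shared by most matrix receptors, was at 22.08 and 42.08 RPKM (1.91-fold), and it lies on chromosome 8 with its median log2 ratio of 0.36. Itga1, an α subunit of a collagen receptor, was at 0.12 and 0.70 RPKM, and Itga7, of a laminin receptor, at 0.09 and 0.32 RPKM. Both are among the 5, and both passed the filter only through their G34R values. Dag1, encoding dystroglycan, was near equal at 24.40 and 23.62 RPKM. At the other end Ddr2, a collagen receptor kinase, was at 0.61 RPKM in WT and 0.03 RPKM in G34R cells, and Itgb3 at 0.63 and 0.34 RPKM. Itga6 and Itga3, the laminin-binding partners of Itgb1, named after their values were seen, were at 11.89 and 18.37 RPKM and at 4.65 and 10.34 RPKM.

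Genes for folding, secreting and cross-linking collagen gave no common direction, with 6 of the 15 past the filter higher and 9 lower in G34R cells, and a median log2 ratio of -0.14. The most abundant were Ppib at 94.52 and 76.03 RPKM, P4hb at 88.10 and 79.94 RPKM and Glt25d1 at 17.34 and 27.34 RPKM. Plod1, a lysyl hydroxylase, was at 2.57 and 5.70 RPKM (2.22-fold), while its paralog Plod2 was at 11.17 and 6.46 RPKM. The cross-linking enzymes Loxl4 and Loxl2 had log2 ratios of 1.75 and -0.77. Loxl4, at 0.11 and 0.37 RPKM, passed the filter only through its G34R value. The collagen chaperone Serpinh1, named after its value was seen, was at 11.13 RPKM in WT and 22.12 RPKM in G34R cells (1.99-fold).

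Markers of the endoderm lineage outside the 10 genes lay on both sides of equality. Among the other regulators and early markers of the primitive endoderm, 7 of the 9 found passed the filter, 4 higher and 3 lower, with a median log2 ratio of 0.03. Pdgfra, the growth factor receptor by which primitive endoderm is often sorted, was at 0.29 RPKM in WT and 0.55 RPKM in G34R cells (1.90-fold). The keratins were divided, with Krt19 at 2.50 and 4.41 RPKM against Krt8 at 8.40 and 4.37 RPKM and Krt18 at 8.94 and 5.22 RPKM. Of the 7 parietal endoderm markers 5 passed, 2 higher and 3 lower. Vim was at 42.50 RPKM in WT and 18.50 RPKM in G34R cells (log2 ratio -1.20) and Snai1 at 0.27 and 0.17 RPKM. Fst was at 0.48 and 0.67 RPKM, Pth1r at 0.37 and 0.50 RPKM and Srgn at 0.92 and 0.77 RPKM. Under the filter, and named after their values were seen, Thbd was at 0.04 and 0.15 RPKM and Plat at 0.14 and 0.13 RPKM.

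Of the 11 visceral endoderm markers, 6 passed the filter, 3 higher and 3 lower. Trf, encoding transferrin, was at 2.61 and 6.20 RPKM, and Amn and Cubn, which form a receptor with Dab2 as an adaptor, were at 0.38 and 0.90 RPKM and at 0.93 and 1.52 RPKM. Lrp2, encoding megalin, was at 4.75 RPKM in WT and 1.62 RPKM in G34R cells. Hnf4a, a nuclear receptor of the visceral endoderm, was at 0.56 and 0.06 RPKM, and Rbp4 at 0.81 and 0.20 RPKM. Of secreted proteins under the filter, named after their values were seen, Afp was listed at 0 in both libraries, Ttr at 0.02 and 0 RPKM, Apoa1 at 0.10 and 0.06 RPKM and Apob at 0.06 and 0.04 RPKM.

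**Figure D4:**
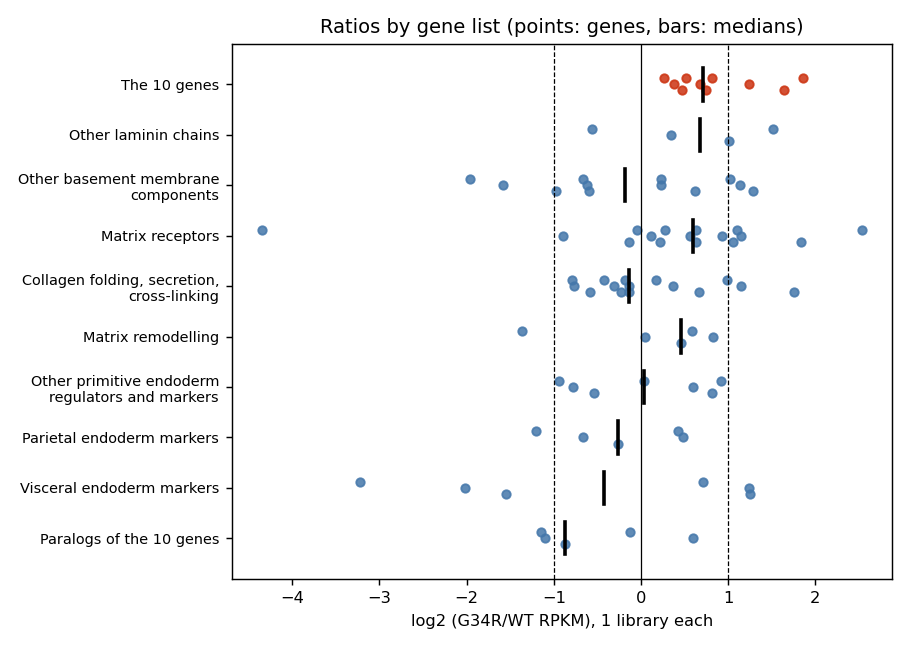
The log2 (G34R/WT RPKM) of single genes past the filter in the 10 genes (red) and in gene lists (blue), with medians as bars and dashed lines at 2-fold. The lists of ES cell and other cell type markers and of other collagen IV chains are not drawn. The 10 genes, picked with these values known, have a median of 0.71 and are all to the right of 0. The medians of other laminin chains (0.68), matrix receptors (0.59) and matrix remodelling genes (0.46) are also to the right. Other basement membrane components and endoderm markers lie on both sides.

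Markers of other cell types were mostly low in both libraries, and those under the filter that are named here were chosen after their values were seen. The summed RPKM of the 11 fibroblast markers was 2.71 in WT and 1.08 in G34R cells, and Postn, Dcn, Lum and Prrx1 were listed at 0 in both. Those past the filter were Thy1 at 1.18 and 0.71 RPKM, Acta2 at 0.74 and 0.03 RPKM and Pdgfrb at 0.47 and 0.06 RPKM. Of the 7 endothelial markers the sum was 12.79 and 8.81 RPKM, of which Pecam1, an ES cell gene as well, held 10.43 and 6.14 RPKM. The other 2 endothelial markers past the filter differed in direction, with Esam, a junction protein, at 0.23 and 1.83 RPKM (log2 ratio 2.99) and the receptor kinase Tek at 1.84 and 0.72 RPKM (log2 ratio -1.35). The defining endothelial gene Cdh5 was at 0.09 and 0.02 RPKM and Emcn was listed at 0. In the definitive endoderm and mesendoderm list the sum was 1.54 and 1.45 RPKM, with Cer1 at 0 and Foxa2 at 0.13 and 0.07 RPKM. Also under the filter, Mixl1 was at 0.06 and 0.16 RPKM and T at 0.03 and 0.05 RPKM. Past the filter were Hhex at 0.74 and 0.78 RPKM, Gsc at 0.34 and 0.10 RPKM and Cxcr4 at 0.24 and 0.29 RPKM. The 7 trophoblast markers found summed to 0.97 RPKM in WT and 2.48 RPKM in G34R cells. Eomes was the highest of them, at 0.43 and 1.88 RPKM, and Hand1 was at 0.14 and 0.26 RPKM. Under the filter, Gata3 was at 0.09 and 0.16 RPKM, Cdx2 at 0.04 and 0.09 RPKM and Elf5 at 0 and 0.02 RPKM. In the other direction, Krt7 was at 0.23 and 0.07 RPKM and Tpbpa at 0.04 and 0 RPKM.

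The 10 genes lie on 8 chromosomes, and the ratios of their neighbours lay on both sides of 0. The 59 other genes past the filter within 500 kb of a member had a median log2 ratio of -0.04. Of these, 26 were higher in G34R cells and 4 by more than 2-fold, beside 44.5% and 5.79% of all genes. The 4 were Rgs20 near Sox17 (log2 ratio 3.17), E330020D12Rik near Lamc1 (2.47), and Fam110c and Acp1 near Lamb1 (1.22 and 1.1), each above its member. All 5 neighbours of Gata6 had negative log2 ratios, between -2.0 and -0.09, beside 1.86 for Gata6. For Gata4 the 9 neighbours had a median of -0.10, for Sox17 the 5 neighbours -0.12 and for Sparc the 10 neighbours -0.33. The medians were 0.07 around Lamb1 and 0.10 around Lamc1. The only neighbour of Lama1 had a log2 ratio of 0.22, and both of Dab2 had a median of -0.17.

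**Figure D5:**
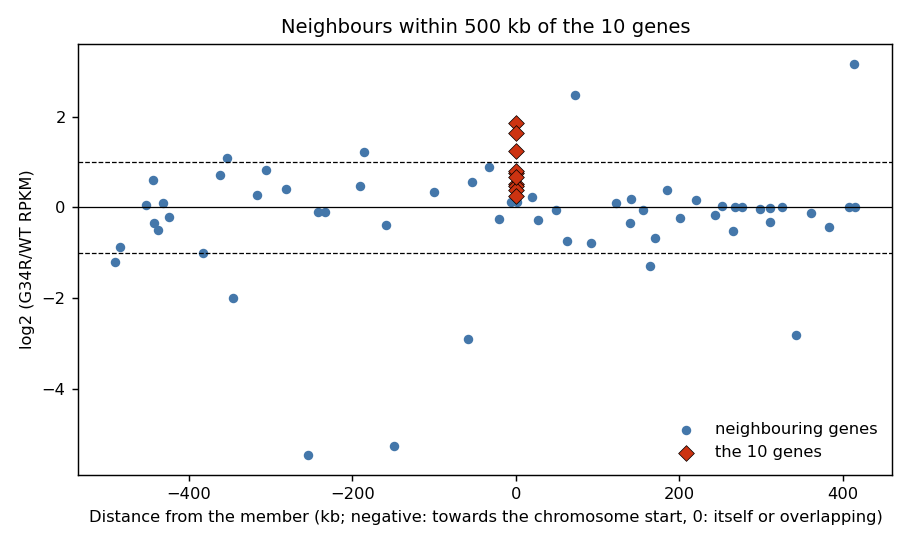
The log2 (G34R/WT RPKM) of the 59 genes within 500 kb (blue) against their distance in kb from the member, with the 10 genes as red diamonds at 0 and dashed lines at 2-fold. Neighbours scatter around 0, with a median of -0.04, and the members lie between 0.26 and 1.86.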

How the data were processed

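RNA from 1 WT and 1 G34R ES cell culture was sequenced. Stranded 50 bp single-end reads had been aligned to mm9 with STAR (2.4.2a) and quantitated in Seqmonk over mRNA features, with isoforms merged and transcript length corrected. The authors deposited RPKM per gene for each library, rounded to 2 decimals, and no raw counts were used here. These values are shares of a library, so a difference in total RNA or in a few very high genes would move every one of them.

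The 10 members were found by their probe name in both files. For the log2 (G34R/WT RPKM), values under 0.01 RPKM were raised to 0.01. Genes with at least 0.25 RPKM in 1 library entered all counts, and a change of more than 2-fold was the limit. Some list genes passed through 1 library alone, which partly sets the direction of their ratio. These were Itga1, Itga7, Loxl4, Hand1, Esam and Cxcr4 through G34R cells and, among others, Ddr2, Hnf4a and Acta2 through WT cells. With 1 library per group there was no test. The members and gene lists were chosen with earlier results of these data known. Counts of list genes are therefore descriptions, to be set beside the 44.5% of all genes past the filter that were higher in G34R cells. The named genes were the members, H3f3a and H3f3b, other laminin and collagen IV chains and, in each list, among genes past the filter, the 3 with the highest mean RPKM and the 2 largest and 2 smallest ratios. Further genes, and all other list genes under the filter, were named after their values were seen.

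In genes of 1 exon and under 800 bp, low RPKM are multiples of 1 read, which gave the depth, 88.1 M reads for WT and 72.3 M for G34R cells, and reads per gene were estimated from RPKM, depth and merged exon length in GENCODE M1, an annotation of mm9 in which 26030 probes were matched. The 95% intervals of ratios are exact (Clopper-Pearson) for the division of the reads between both libraries. They cover counting error only, and would not hold molecules duplicated by PCR or differences between cultures. Scripts were tested on simulated data. 1 gene is not reported here and was left out of the gene lists. The alternatives were 3 pseudocounts, 3 filters, 3 scalings and 2 fold limits. Calculations ran in Python 3.11.15 with pandas 2.3.3, NumPy 2.4.6 and SciPy 1.17.1, and figures were drawn with matplotlib 3.10.9.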

Additional observations from a re-analysis of the deposited data

How the results depend on the processing

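No paired analysis was possible because there was 1 library per group. The members kept a positive log2 ratio in 59 of 60 recalculations with other pseudocounts and scalings, and the exception was Col4a1 at -0.10 when centred on its chromosome. Adding 1 RPKM to every value shrank weak genes most. No member was then higher by more than 2-fold (0, from 3), the median of the members was 0.48, and Gata6, Gata4 and Sox17 were at 0.68, 0.54 and 0.40. Of the 13366 genes past the filter, 196 were then higher by more than 2-fold and 356 lower. With at least 5 RPKM the transcription factors, Dab2 and Col4a2 drop out, which left 0 members past 2-fold and a median of 0.47, with 181 genes higher and 239 lower. At a limit of 1.5-fold, 6 members were higher, and of the 13366 genes past the filter 1780 were higher and 2422 lower. At 3-fold, 2 members were higher, with 331 and 721 of these genes higher and lower. Without a filter 3 members were higher, and of all 26127 genes 1445 were higher and 2877 lower. With at least 1 RPKM, which leaves fewer genes, 2 members were higher, beside 439 genes higher and 689 lower. The median of the ES cell markers was -0.04 and turned to 0.01 with equal sums of RPKM or centring on the median, and to 0.02 when centred on chromosomes. Depth limits Sox17 most, with about 50 reads in WT cells, and without replicates no setting bears on the spread between cultures.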

Other observations

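Paralogs of the members did not all share their direction. Of 8 listed, 5 passed the filter, and 4 of these were lower in G34R cells, with a median log2 ratio of -0.87. Of all 13366 genes past the filter, 7355 were lower, and nothing is read from the count of the paralogs. Gata2 was at 0.51 RPKM in WT and 0.23 RPKM in G34R cells, Gata1 at 0.43 and 0.20 RPKM and Sox18 at 0.55 and 0.30 RPKM. Dab1 was at 0.92 and 0.84 RPKM. Sox7, the SOX F factor that also marks endoderm, was at 0.29 and 0.44 RPKM. The paralogs under the filter were named after their values were seen. Gata3 was at 0.09 and 0.16 RPKM. Gata5, another endoderm GATA factor, was at 0.01 RPKM and Sparcl1 at 0.04 RPKM in both libraries.

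Among 6 genes that remodel matrix, 5 passed the filter and 4 of these were higher in G34R cells, beside 44.5% of all genes past the filter. Their median log2 ratio was 0.46, and as the list was chosen with earlier results of these data known, nothing is read from its counts. The metalloproteinases Mmp2 and Mmp14 were at 2.31 and 4.10 RPKM and at 2.78 and 4.16 RPKM in WT and G34R cells. The inhibitors were divided, with Timp1 at 11.75 and 16.13 RPKM, Timp2 at 0.55 and 0.57 RPKM and Timp3 at 0.67 and 0.26 RPKM. These values have no replicates and were not tested.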
